A study of Homo sapiens with 11 samples.

Results

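Of the 26485 gene rows in the count tables, 32 were taken as the sterol and fatty acid synthesis genes, by looking up their symbols in both tables, and all 32 were found and tested. They fall into 7 mevalonate and isoprenoid steps (ACAT2, HMGCS1, MVK, PMVK, MVD, IDI1, FDPS), 11 squalene and sterol steps (FDFT1, SQLE, LSS, CYP51A1, TM7SF2, MSMO1, NSDHL, HSD17B7, EBP, SC5D, DHCR7), 8 fatty acid steps (ACLY, ACSS2, ACACA, FASN, ELOVL6, SCD, FADS1, FADS2) and 6 genes of sterol sensing and transport (SREBF1, SREBF2, SCAP, INSIG1, INSIG2, STARD4). The cells were Caki-1-SR, a sunitinib-resistant subline of a human clear cell renal cell carcinoma line that came from a skin metastasis, kept in medium with 1 µM sunitinib. Per the study's text they were clone 1, so that 1 clone stands for the resistant line. ODC cells received 5 µM parthenolide (a sesquiterpene lactone), 2 µM Rapta-C (a ruthenium compound), 1 µM metformin (a biguanide) and 1 µM erlotinib (an EGFR kinase inhibitor) together, for 2 h or 24 h. CTRL cells did not receive the combination, and the study calls them untreated in one place and sham-treated in another. There were 3 CTRL and 3 ODC libraries at 24 h, and 2 CTRL and 3 ODC libraries at 2 h, named below by the number in their label (CTRL 1, 3, 5 and ODC 2, 4, 6 at 24 h; CTRL 1, 2 and ODC 3, 4, 5 at 2 h). The comparisons ask whether the genes of either pathway were higher or lower after the combination, and whether the sterol and the fatty acid arm differed.

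Sterol synthesis joins acetyl-CoA units into mevalonate, converts mevalonate into isoprenoid units and squalene, and closes and trims squalene into cholesterol. Fatty acid synthesis carboxylates acetyl-CoA, builds palmitate from it, and then elongates and desaturates the chain. Most genes of both pathways are driven by the transcription factors SREBP-1 and SREBP-2, which SCAP carries out of the endoplasmic reticulum when sterols are low and which INSIG proteins hold back when sterols are high. SREBP-2 acts mainly on the sterol genes and SREBP-1c mainly on the fatty acid genes, and clear cell renal carcinoma owes its name to cytoplasm filled with lipid and glycogen.

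SREBPs act at many of their target promoters together with NF-Y, a factor that binds the CCAAT box, so the upstream sequences of 5 members are shown. They are SCD, STARD4 and SREBF1, with the lowest fold changes at 24 h, and IDI1 and HMGCS1 from the mevalonate steps, of which one was lower and the other near CTRL. Each run is the stretch of the 250 bases before a RefSeq start (GRCh38.p14) that no annotated exon covers, read 5′ to 3′ on the gene's strand, and capitals mark CCAAT or its reverse complement ATTGG.
SCD, chr10:100346983-100347232, plus strand: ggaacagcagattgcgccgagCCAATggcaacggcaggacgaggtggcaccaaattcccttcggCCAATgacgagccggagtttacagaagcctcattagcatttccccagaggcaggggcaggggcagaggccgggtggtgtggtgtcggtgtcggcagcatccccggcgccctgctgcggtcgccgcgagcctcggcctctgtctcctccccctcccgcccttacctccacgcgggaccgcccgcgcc
STARD4, chr5:111512591-111512785, minus strand: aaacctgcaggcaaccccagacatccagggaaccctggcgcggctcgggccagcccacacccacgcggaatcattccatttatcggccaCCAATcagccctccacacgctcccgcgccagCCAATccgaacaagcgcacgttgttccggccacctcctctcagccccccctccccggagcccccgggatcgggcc
SREBF1, chr17:17837003-17837236, minus strand: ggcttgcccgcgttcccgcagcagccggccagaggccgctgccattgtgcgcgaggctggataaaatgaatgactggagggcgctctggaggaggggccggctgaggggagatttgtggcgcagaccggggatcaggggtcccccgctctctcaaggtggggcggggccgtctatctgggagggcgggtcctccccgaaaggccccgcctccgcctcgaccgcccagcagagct
IDI1, chr10:1049120-1049369, minus strand: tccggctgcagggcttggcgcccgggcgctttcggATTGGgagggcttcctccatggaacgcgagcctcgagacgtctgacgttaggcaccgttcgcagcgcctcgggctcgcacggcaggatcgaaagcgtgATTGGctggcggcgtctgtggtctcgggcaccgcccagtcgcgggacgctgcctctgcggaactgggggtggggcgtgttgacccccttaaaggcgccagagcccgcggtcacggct
HMGCS1, chr5:43313513-43313662, minus strand: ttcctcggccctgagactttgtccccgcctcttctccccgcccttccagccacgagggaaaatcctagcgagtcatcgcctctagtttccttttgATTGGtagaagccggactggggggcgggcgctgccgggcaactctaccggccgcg

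SCD has CCAAT boxes 229 and 186 bases before the start, STARD4 161 and 130 bases and IDI1 215 and 117 bases before it. In the bases shown, HMGCS1 has one at 155 bases and SREBF1 has none. Upstream windows were matched for 28 of the 32 members, with several starts for some. CCAAT on either strand was in at least 1 window of 20 of the 28 (71.4%), against 37.0% of all 27305 genes with a window. Those 27305 were not limited to genes tested for expression here, whereas every member was tested. By arm it was in 13 of 15 mevalonate and sterol genes (86.7%), 4 of 7 fatty acid genes (57.1%) and 3 of 6 sensing and transport genes (50.0%). The E-box CACGTG was in 3 of 28 members (INSIG1, SC5D and SCAP; 10.7%, against 7.73% of all genes), and CACCCCAC, the core of one sterol response element, or its reverse complement, was in 1 (SREBF2; 3.57%, against 2.97%). SREBF1 and FADS2, both with low fold changes, held none of these motifs, and MVK and NSDHL, with unlike fold changes, each held 5 CCAAT boxes. A match is only a run of letters in this window.

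Library totals lay between 17785229 and 20882856 counts at 24 h and between 25782895 and 31118349 at 2 h. Levels are given as CPM, the counts of a gene relative to the total of its library, scaled within each time point by TMM, a factor that evens out library composition. Caki-1-SR libraries held the renal markers PAX8, KRT8 and KRT18, while PAX2 was at or near 0 and EPCAM was at most 3.87 CPM. Endothelial markers summed to at most 1.28 CPM and immune markers to at most 3.21 CPM in any library. CTRL library 1 at 2 h stood apart, with a count for 16840 genes against 15761 to 15973 in the other 2 h libraries, 37.6 CPM of the collagen gene COL1A2 against at most 0.36, and fibroblast markers summing to 285 CPM against 137 to 169. The labels do not say whether libraries of a group came from separate cultures, so p-values measure only the spread between these libraries.

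Across all members in CTRL cells at 24 h, levels per kilobase of exon were highest for SCD (157 ± 48.9 CPM per kb, SD, n = 3), ACLY (113 ± 7.99) and FASN (89.7 ± 9.77), 3 fatty acid steps. SCD and ACLY overlapped between libraries, and so did IDI1, CYP51A1 and MVD lower in the order. The highest sterol-side gene was FDPS (46.9 ± 5.62 CPM per kb) and the lowest member of all was TM7SF2 (0.55 ± 0.44).

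At 24 h the members leaned lower in ODC. Of the 32, 23 were lower and 9 higher, with a median log2 fold change of -0.22, while the 12689 genes tested divided evenly (50.1% higher, median 0.001). EdgeR's quasi-likelihood method, with p-values adjusted over all genes tested after Benjamini and Hochberg, put 0 members under an adjusted p of 0.05, and 24 genes in all (0.189%). At an unadjusted p under 0.05 there were 9 lower members, STARD4, SCD, IDI1, ELOVL6, SREBF1, FDPS, MVK, FDFT1 and EBP (background over all genes 5.04%), and 1 higher, SCAP (background 7.20%). CTRL and ODC libraries did not overlap for 8 lower members (background 8.51%) and 1 higher (background 9.42%). SCD, STARD4, IDI1 and ELOVL6 kept an unadjusted p under 0.05 whichever single library was left out, while the count of 10 members became 6 without CTRL 3, ODC 2 or ODC 6 and 17 without ODC 4. In bulk RNA, fewer cells of a type and less RNA per cell cannot be told apart.

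**Figure D1:**
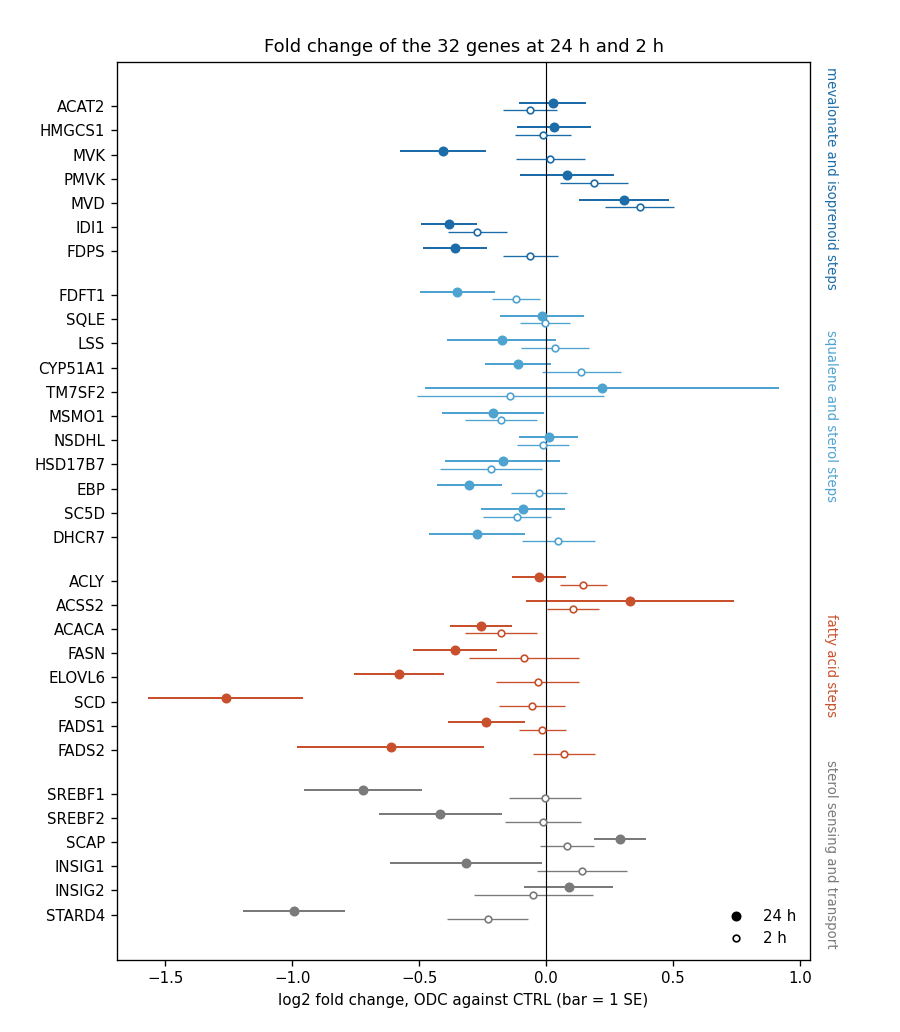
Log2 fold change of ODC against CTRL (horizontal axis, bars 1 SE) for each of the 32 genes, filled at 24 h and open at 2 h, grouped by role. The fatty acid steps from ACACA down lie left of 0 at 24 h, with SCD at -1.26, while the 2 h values lie between -0.27 and 0.37.

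SCD, the desaturase that turns saturated into monounsaturated fatty acyl chains (chromosome 10, 100347233 to 100364826, hg38), had the lowest fold change of the set. It stood at 754, 1108 and 610 CPM in CTRL libraries 1, 3 and 5, and at 250, 502 and 279 CPM in ODC libraries 2, 4 and 6. Every ODC library was below every CTRL library, and libraries 3 and 4 were the highest of their groups. Its log2 fold change was -1.26 (SE 0.30), a level 0.417 times that of CTRL (edgeR, unadjusted p = 0.0032, adjusted p = 0.157). It was the only member past a 2-fold change with an unadjusted p under 0.05. DESeq2, edgeR's likelihood ratio test and a joint fit of all 11 libraries each put SCD and STARD4, and no other member, under an adjusted p of 0.05.

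The other chain-building genes were lower by less. ELOVL6, which lengthens palmitate to stearate, stood at 39.7, 24.4 and 32.5 CPM in CTRL and 21.5, 20.3 and 22.8 CPM in ODC. Its log2 fold change was -0.58 (SE 0.18; edgeR, adjusted p = 0.249), and the ODC libraries lay close together just under the lowest CTRL library. FASN, the palmitate synthase, stood at 758, 936 and 815 CPM in CTRL and 494, 732 and 730 CPM in ODC, a log2 fold change of -0.36 (SE 0.17; edgeR, adjusted p = 0.439) that was -0.19 without ODC library 2. All 3 ODC values were under all CTRL values here too, by a narrow margin between CTRL 1 and ODC 4. FADS2, the first desaturase of polyunsaturated chains, stood at 124, 238 and 120 CPM in CTRL and 77.8, 163 and 73.6 CPM in ODC, so that the groups overlapped through ODC 4, which lay above CTRL 1 and CTRL 5. Its log2 fold change was -0.61 (SE 0.37; edgeR, adjusted p = 0.567), with -0.21 without CTRL 3 and -1.09 without ODC 4. ACACA, which makes malonyl-CoA, and FADS1, another desaturase, had log2 fold changes of -0.26 and -0.23. Without ODC library 2 ACACA was at -0.16 and without ODC library 4 at -0.38, and FADS1 was at -0.11 without CTRL library 3, -0.13 without ODC library 2 and -0.39 without ODC library 4. Neither of the acetyl-CoA suppliers was low: ACLY, which cleaves citrate, was at -0.027 (SE 0.11) and ACSS2, which activates acetate, at 0.33 (SE 0.41). Over the 8 fatty acid steps 7 were lower and 1 higher, with a median of -0.31, and the median was -0.47 over the 6 without ACLY and ACSS2, which takes out the one higher member and the one nearest 0.

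In the early sterol arm 3 genes were lower and the others near CTRL or higher. IDI1, the isomerase of the isoprenoid units, stood at 34.8, 35.4 and 37.9 CPM in CTRL and 25.3, 29.6 and 28.0 CPM in ODC, with no overlap and a log2 fold change of -0.38 (SE 0.11; edgeR, adjusted p = 0.215). FDPS, which makes farnesyl diphosphate, stood at 180, 191 and 151 CPM in CTRL and 140, 149 and 118 CPM in ODC, again without overlap, at -0.36 (SE 0.13; adjusted p = 0.303 in edgeR's quasi-likelihood test). MVK, mevalonate kinase, stood at 22.3, 24.8 and 26.4 CPM in CTRL and 16.1, 23.2 and 16.2 CPM in ODC, at -0.40 (SE 0.17; adjusted p = 0.388 by edgeR). ODC library 4 overlapped CTRL for MVK. HMGCS1, which makes HMG-CoA, stood at 39.8, 44.1 and 43.7 CPM in CTRL and 34.4, 49.6 and 46.4 CPM in ODC, a log2 fold change of 0.031 (SE 0.15), and the groups overlapped. MVD, the decarboxylase between MVK and IDI1, was at 26.6, 29.0 and 38.9 CPM in CTRL and 32.2, 41.6 and 43.1 CPM in ODC, a log2 fold change of 0.31 (SE 0.18; edgeR, adjusted p = 0.545) that was 0.19 without CTRL library 1 and 0.49 without CTRL library 5. ACAT2, which joins acetyl-CoA units, and PMVK, the second kinase of the pathway, were at 0.027 and 0.081, so that 4 of the 7 mevalonate and isoprenoid steps were higher and 3 lower.

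FDFT1, the squalene synthase, stood at 82.7, 91.2 and 69.0 CPM in CTRL and 60.7, 75.0 and 55.1 CPM in ODC, a log2 fold change of -0.35 (SE 0.15; edgeR, adjusted p = 0.400). The groups overlapped through CTRL 5 and ODC 4. EBP, the sterol isomerase, stood at 52.2, 63.3 and 52.1 CPM in CTRL and 47.7, 49.1 and 39.2 CPM in ODC, without overlap, at -0.30 (SE 0.13; edgeR, adjusted p = 0.401). The other steps had log2 fold changes between -0.27 (DHCR7, the last reductase of one branch) and 0.22 (TM7SF2, SE 0.70), and none had an unadjusted p under 0.05. The DHCR7 value was -0.17 without CTRL library 3, -0.10 without ODC library 2 and -0.48 without ODC library 4. SQLE, the squalene epoxidase, was at -0.017 (SE 0.17) and NSDHL, a sterol dehydrogenase, at 0.0099 (SE 0.12), while LSS, which closes the sterol rings, CYP51A1 and MSMO1, which act in removing methyl groups, HSD17B7, a ketoreductase, and SC5D, a desaturase, lay between -0.21 and -0.090. Of these 11 genes 9 were lower and 2 higher, with a median of -0.17.

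**Figure D2:**
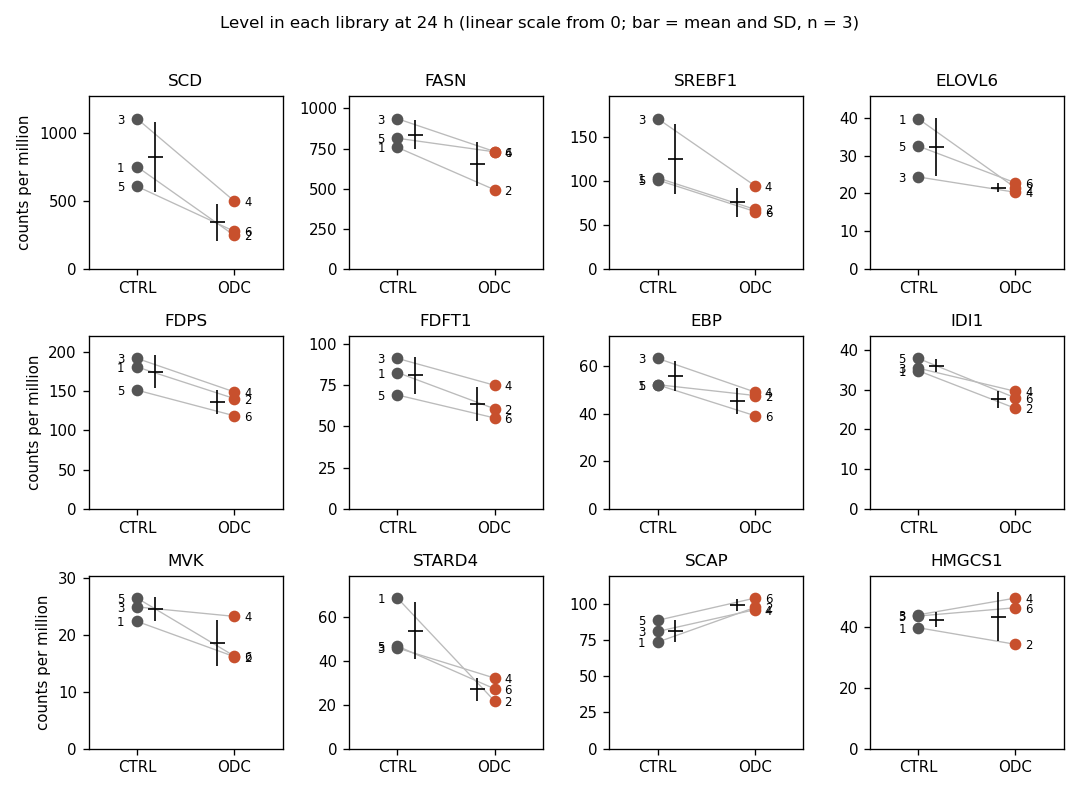
CPM (vertical axis, from 0) of 12 genes in the CTRL libraries 1, 3, 5 and the ODC libraries 2, 4, 6 at 24 h, with mean and SD beside the points (n = 3); grey lines join libraries of adjacent numbers, which the labels do not call pairs. SCD and STARD4 show the widest gap between the groups relative to their level, SCAP is the only one of the 12 whose ODC libraries all lie above CTRL, and FDFT1, MVK and HMGCS1 overlap.

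Set side by side, the fatty acid steps had the lower median. It was -0.31 over 8 genes against -0.14 over the 18 mevalonate and sterol steps, of which 12 were lower and 6 higher. At an unadjusted p under 0.05 there were 2 of 8 fatty acid steps and 5 of 18 sterol-side steps, all lower (background 5.04%), and the groups did not overlap for 3 of 8 and 3 of 18, again all lower (background 8.51%). The summed CPM of the fatty acid steps was 2686, 3358 and 2500 in CTRL libraries 1, 3 and 5 and 1692, 2486 and 1975 in ODC libraries 2, 4 and 6, with the highest ODC library just under the lowest CTRL library. Without SCD these sums overlapped, at 1932, 2250 and 1890 CPM in CTRL and 1443, 1984 and 1695 CPM in ODC. On the sterol side the sums were 916, 1028 and 925 CPM in CTRL and 750, 974 and 811 CPM in ODC, and they overlapped. The mean log2(CPM + 1) of the sterol-side steps minus that of the fatty acid steps was -2.35, -2.39 and -2.12 in CTRL and -2.00, -2.15 and -1.92 in ODC, so that the groups overlapped through CTRL 5 and ODC 4. No test of one arm against the other was made, because the genes were chosen with earlier results of these data known. Without ODC library 2 the medians were -0.18 and -0.021, and without ODC library 4 they were -0.42 and -0.31. The sterol-side median was -0.24 without CTRL library 1 and -0.081 without CTRL library 3, where the fatty acid median was -0.36 and -0.22.

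Among the 6 sensing and transport genes both SREBP genes, STARD4 and INSIG1 were on the lower side, and SCAP and INSIG2 on the higher side, with a median of -0.37. STARD4, a carrier of cholesterol between membranes (chromosome 5, 111496033 to 111512590, hg38), had the smallest unadjusted p of the set. It stood at 68.9, 46.0 and 46.9 CPM in CTRL and 21.8, 32.3 and 27.3 CPM in ODC, with no overlap and the widest gap between CTRL 1 and ODC 2. Its log2 fold change was -0.99 (SE 0.20; edgeR, unadjusted p = 0.0012, adjusted p = 0.113). SREBF1, the gene of SREBP-1 (chromosome 17, 17810399 to 17837002, hg38), stood at 104, 171 and 101 CPM in CTRL and 68.1, 95.0 and 65.6 CPM in ODC, with every ODC library below every CTRL library. Its log2 fold change was -0.72 (SE 0.23; edgeR, adjusted p = 0.264), and it was -0.43 without CTRL library 3. SREBF2, the gene of SREBP-2, stood at 80.7, 122 and 79.2 CPM in CTRL and 53.3, 94.3 and 63.7 CPM in ODC, at -0.42 (SE 0.24; edgeR, adjusted p = 0.547), with ODC 4 above CTRL 1 and CTRL 5. The SREBF2 value was -0.18 without CTRL library 3, -0.25 without ODC library 2 and -0.69 without ODC library 4. SCAP, the escort of the SREBPs, stood at 73.5, 80.9 and 88.6 CPM in CTRL and 97.4, 95.9 and 104 CPM in ODC, higher without overlap at 0.29 (SE 0.10; edgeR, adjusted p = 0.293). INSIG1, a retention protein of the SREBPs, stood at 82.1, 84.4 and 72.6 CPM in CTRL and 34.2, 92.0 and 65.9 CPM in ODC. Its log2 fold change was -0.32 (SE 0.30), with -0.014 without ODC library 2 and -0.67 without ODC library 4. INSIG2, its relative, was at 0.088 (SE 0.18).

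Values of libraries 3 and 4 were the highest of their groups for SCD, FADS2, SREBF1, SREBF2, LSS and DHCR7, among other members. Over all genes, how far a library lay from its group mean correlated with r = 0.27 between libraries 1 and 2, 0.63 between 3 and 4 and 0.49 between 5 and 6, and across the other CTRL and ODC libraries with r from -0.57 to 0.24, the highest between 1 and 6. The labels do not call these pairs, and what they share is not given in the sources used here. With adjacent numbers as a block, edgeR's quasi-likelihood test put 7 members under an adjusted p of 0.05, all lower, against a background of 2.06%. They were SCD (adjusted p = 0.0052), FADS2 (0.0102) from the fatty acid steps, FDPS (0.0270) and FDFT1 (0.0396) from the sterol side, and SREBF1 (0.0104), SREBF2 (0.0334) and STARD4 (0.0442). Within all 3 adjacent pairs 17 of the 32 members were lower in ODC (background 22.9%), 6 of 8 fatty acid steps and 8 of 18 sterol-side steps among them. FDPS differed by nearly the same amount in each, with log2 ratios of -0.36, -0.36 and -0.35, whereas STARD4 ran from -1.66 to -0.51. MVD and SCAP were the 2 members higher in all 3 (background 23.5%).

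**Figure D3:**
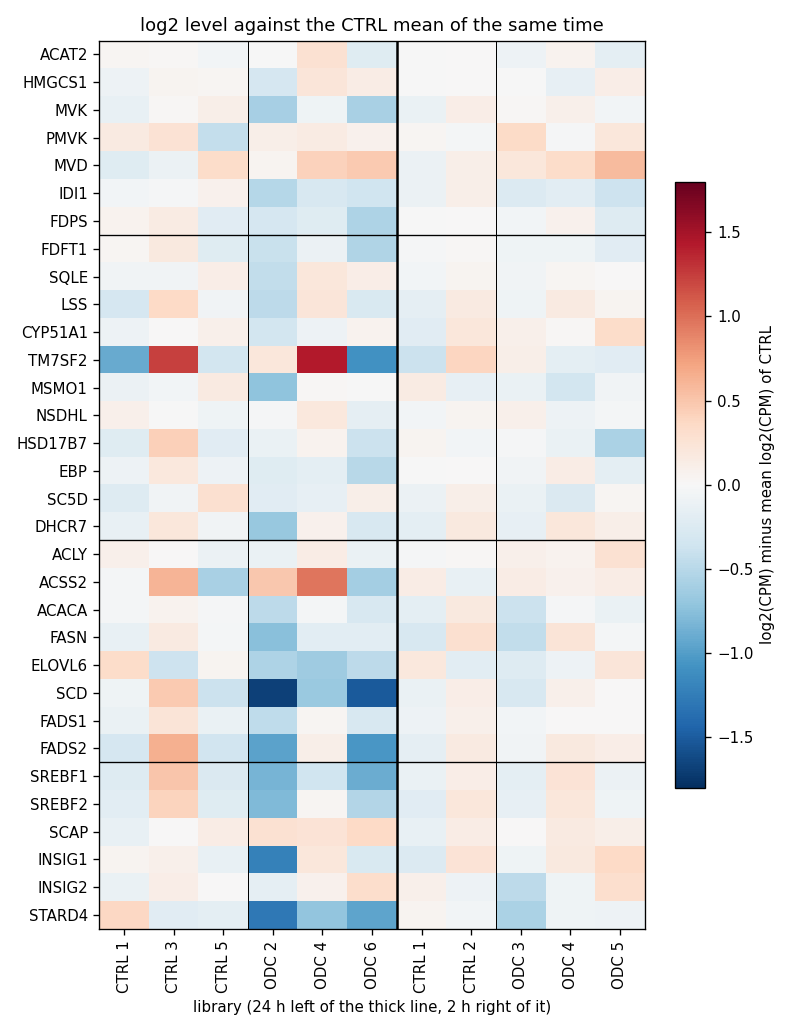
Colour gives the log2 CPM of each gene (rows, by role) in each library (columns) minus the mean of the CTRL libraries of the same time, with 24 h left of the thick line and 2 h right of it. ODC libraries 2 and 6 at 24 h are blue for SCD, FADS2, SREBF1 and STARD4. ODC library 4 is a paler blue for SCD, SREBF1 and STARD4, and for FADS2 it lies just above the CTRL mean (0.10). The 2 h columns are paler than ODC libraries 2 and 6 for SCD, FADS2 and SREBF1.

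Other measures moved at 24 h beside the members. The epithelial keratin genes KRT8 and KRT18 were lower in ODC without overlap (log2 fold changes -0.62 and -0.71; edgeR, adjusted p = 0.202 and 0.128). Of the 6 renal markers tested 4 were lower and 2 higher, with log2 fold changes from -1.12 to 0.33. KRT8 and KRT18 were the only 2 without overlap (background 8.51% lower). The renal list summed to 1629 to 2111 CPM in CTRL and 1415 to 1892 CPM in ODC. Fibroblast markers summed to 66.8 to 142 CPM in CTRL and 116 to 169 CPM in ODC, almost all of it COL1A1 and PDGFRB, with COL1A2, DCN and LUM at or near 0. Endothelial and immune markers stayed near 0 in both groups, apart from ITGAM, a myeloid integrin, at 0.096 to 0.44 CPM in CTRL and 0.62 to 1.03 CPM in ODC (log2 fold change 1.58, SE 0.50; edgeR, adjusted p = 0.262). Immune markers together summed to 0.14 to 0.61 CPM in CTRL and 0.87 to 1.57 CPM in ODC, without overlap. ITGAM had 2, 5 and 8 counts in the CTRL libraries and 15, 19 and 13 in the ODC libraries, in order of library number. Its fold change and the immune sums therefore rest on few counts. The part of these other measures in the lipid gene values was not tested.

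At 2 h the members were close to CTRL. Their median log2 fold change was -0.014, with 11 higher and 21 lower, beside -0.006 over the 13332 genes tested. No gene passed an adjusted p of 0.05 in edgeR's quasi-likelihood test (0 of 13332, 0%), and the adjusted p of every member rounded to 1. DESeq2 put 1 gene and the likelihood ratio test 5 genes under that threshold, and neither put a member there. At an unadjusted p under 0.05 there was 1 higher member, MVD (background 1.47%), and 1 lower, IDI1 (background 0.870%). The 2 groups did not overlap for 2 higher members, MVD and ACLY (background 7.89%), and 3 lower ones, IDI1, FDFT1 and STARD4 (background 7.42%). The median was -0.020 for the mevalonate and sterol steps and -0.024 for the fatty acid steps.

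MVD stood at 43.0 and 49.8 CPM in CTRL libraries 1 and 2 and at 53.1, 58.0 and 68.5 CPM in ODC libraries 3, 4 and 5, a log2 fold change of 0.37 (SE 0.13), and it was 0.27 without CTRL library 1, the one that stood apart. IDI1 stood at 31.9 and 36.8 CPM in CTRL and 28.9, 30.0 and 26.5 CPM in ODC, at -0.27 (SE 0.12), and at -0.37 without that library. The count of 2 members was 3 without CTRL 1 or CTRL 2, 1 without ODC 3 or ODC 4 and 0 without ODC 5. Both genes kept at 24 h the direction they had at 2 h, although the MVD groups overlapped at 24 h. Of the other members without overlap at 2 h, FDFT1 and STARD4 were also lower at both times. ACLY had a log2 fold change of 0.15 at 2 h and -0.027 at 24 h. SCD was at 381 and 453 CPM in CTRL and 341, 445 and 418 CPM in ODC, and STARD4 at 38.6 and 36.1 CPM in CTRL and 25.1, 35.4 and 35.0 CPM in ODC, with ODC library 3 setting the latter difference. For FASN the CTRL values were 366 and 551 CPM and the ODC values 329, 525 and 440 CPM. HMGCS1 was at 49.6 and 49.9 CPM in CTRL and 49.3, 44.8 and 53.9 CPM in ODC, and INSIG1 at 35.3 and 49.5 CPM in CTRL and 39.8, 47.1 and 53.6 CPM in ODC. SREBF1 had 81.3 and 95.4 CPM in CTRL against 77.9, 105 and 81.7 CPM in ODC, and SREBF2 had 60.6 and 80.0 CPM against 63.0, 80.4 and 66.1 CPM. ELOVL6 was at 52.2 and 40.4 CPM in CTRL and 39.1, 43.0 and 53.5 CPM in ODC, and SCAP at 64.9 and 77.6 CPM in CTRL and 71.1, 79.1 and 76.4 CPM in ODC. FDPS was at 150.0 and 150.2 CPM in CTRL and 145, 159 and 127 CPM in ODC, MVK at 13.8 and 16.2 CPM against 15.1, 16.0 and 14.4 CPM, EBP at 59.1 and 60.0 CPM against 57.2, 65.1 and 52.9 CPM, and FDFT1 at 56.5 and 58.0 CPM against 54.1, 54.2 and 49.8 CPM. All of these but MVD, IDI1, STARD4 and FDFT1 overlapped between the groups.

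The difference between the 24 h and the 2 h effect was tested directly over all 11 libraries. Over 13333 genes 2 passed an adjusted p of 0.05 and no member did, while 3 members had an unadjusted p under 0.05 (background 5.93%). These were SCD, at -1.22 on the log2 scale (SE 0.39; edgeR, adjusted p = 0.597), STARD4 at -0.78 (SE 0.29; edgeR, adjusted p = 0.705) and SREBF1 at -0.73 (SE 0.32; edgeR, adjusted p = 0.805). For each, the fold change of ODC against CTRL was lower at 24 h than at 2 h. Next by p was ELOVL6 at -0.56 (SE 0.27), and next by size FADS2 at -0.70 (SE 0.47), with -0.30 without CTRL 3 of 24 h and -1.17 without ODC 4 of 24 h. SCD kept an unadjusted p under 0.05 whichever library was left out, STARD4 lost it without CTRL 1 of 24 h or CTRL 2 of 2 h, and SREBF1 lost it without any one of 5 of the 11 libraries, being at -0.44 without CTRL 3 of 24 h. Leaving out ODC library 4 of 24 h raised the count from 3 to 9. The sample titles carry a different month at each time without saying what it dates, and CTRL levels already differed between them for some members: ACSS2 lay between 12.0 and 27.5 CPM in CTRL at 24 h and between 112 and 137 CPM at 2 h, and DHCR7 between 125 and 157 CPM and between 51.4 and 65.5 CPM. The tables were scaled separately, so such levels are set side by side without a test, and time and whatever goes with that month cannot be told apart.

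Other genes of these pathways were read off the same fit by list. None of the 9 other isoprenoid and sterol genes tested had an unadjusted p under 0.05 at 24 h, and 8 of them were on the higher side. Among 8 genes of SREBP processing and INSIG turnover 2 were higher at that threshold (background 7.20%) and 0 lower (background 5.04%), and these shares over all genes apply to each 24 h list here. ERLIN2 (0.29), which takes part in degrading INSIG proteins, was one of the 2. Of 13 genes of cholesterol uptake, esterification and efflux 1 was higher, the lysosomal cholesterol exporter NPC1 (0.35), and 2 lower, MYLIP (-0.72), a ligase that marks lipoprotein receptors for breakdown, and LPCAT3 (-0.35), an acyltransferase of phospholipids. The 21 other fatty acid genes had 2 higher and 1 lower. ME1, the malic enzyme that supplies NADPH, stood at a mean of 43.9 CPM in CTRL and 65.8 CPM in ODC (log2 fold change 0.58, SE 0.12; edgeR, adjusted p = 0.107), ELOVL4, an elongase of very long chains, was at 0.64 and MID1IP1, a partner of acetyl-CoA carboxylase, at -0.55. In the triglyceride list 2 of 10 were lower, MGLL (-0.64), a monoacylglycerol lipase, and LPIN1 (-0.58), a phosphatidate phosphatase. At 2 h POR (0.27), the electron donor of cytochrome P450 enzymes, SLC25A1 (0.36), the mitochondrial citrate carrier, and PNPLA2 (0.27), a triglyceride lipase, were higher and the cholesterol exporter ABCA1 (-0.33) lower at the same threshold (background 1.47% higher and 0.870% lower), and none of the genes of these lists had an adjusted p under 0.05 at either time.

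Some members share exon bases with neighbours. Whether the counting took in reads of the other strand is not known, because that setting is not given in the sources used here. ACAT2 shares 454 exon bases (17.2% of its length) with TCP1 on the other strand, FDPS 693 (18.6%) with RUSC1-AS1, IDI1 643 with IDI2-AS1, and FADS1 and FADS2 share 490 with each other. HMGCS1 shares 2497 (37.7%) with an antisense lncRNA that has no row in the tables. On their own strand, where that setting makes no difference, EBP shares 644 exon bases (36.4%) with another protein-coding gene model. CYP51A1 likewise shares 2844 (68.2%) with such a model, and neither model has a row. Smaller same-strand overlaps were with genes that do have rows. FADS1 shares 80 (0.78%) with MIR1908, FADS2 49 (0.46%) with FEN1 and TM7SF2 18 (0.53%) with VPS51. SCD shares no exon bases with another annotated gene, and STARD4 shares 124 (2.18%) with STARD4-AS1. Also on the other strand, SREBF1 shares 556 (6.75%) with the protein-coding gene RAI1 and SREBF2 731 (9.08%) with SREBF2-AS1.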

How the data were processed

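RNA of Caki-1-SR cells was sequenced from stranded mRNA libraries. Per the study's methods and the submitters' processing notes, the authors aligned reads to hg38 with STAR (2.7.0f in the notes), counted reads per gene with HTSeq 0.9.1 and deposited the raw counts of 26485 symbols in 2 tables, 1 per time point, without normalization; the notes name edgeR 3.26.8. The methods name other versions of STAR and edgeR. The strand setting of the counting is not given in the sources used here. Groups came from the treatment labels, which assign all 11 libraries.

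From the counts, ODC was compared with CTRL at each time in edgeR 4.0.16 (R 4.3.3; glmQLFit in its earlier form, glmQLFTest, TMM, filterByExpr with a minimum count of 10 and total of 15), two-sided, with Benjamini-Hochberg adjustment over 12689 genes at 24 h, 13332 at 2 h and 13333 for the difference. SE is the absolute log2 fold change over the square root of F. The fits were also run on simulated counts with known changes and the same spread set for all genes. Such counts do not carry the correlation between adjacent 24 h libraries, so they do not test the fits for it. A floor of 3 counts was worth between 0.144 and 0.169 CPM in 24 h libraries and between 0.0964 and 0.116 CPM in 2 h libraries, and covers counting error only. Replicate libraries differed by more than sampling noise (chi-square per gene from 18.7 to 58.0), and each counted as 1 sample.

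The members and lists were chosen with earlier results of these data known, so lists were described by counts and medians without a test. Values in every library are given for members with an unadjusted p under 0.05 in any comparison and for INSIG1, SREBF1, SREBF2, SCD, FASN and HMGCS1, and FADS2 was added at 24 h after its values were seen. From each other list at most the 4 genes with the smallest p are named, and some listed genes are not reported here. Positions and exon lengths came from GENCODE release 44 and upstream sequences from RefSeq (GRCh38.p14). Alternatives were RLE or library-size scaling, every gene with at least 1 count, DESeq2 1.42.0, edgeR's newer quasi-likelihood method and likelihood ratio test, a joint fit, each library left out, and adjacent 24 h library numbers as a replicate block. Adjacent libraries correlated at 0.27, 0.63 and 0.49 in their deviations, and the other CTRL and ODC libraries from -0.57 to 0.24, although the labels do not call them pairs.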

Additional observations from a re-analysis of the deposited data

How the results depend on the processing

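Members under an adjusted p of 0.05 at 24 h were 0 by edgeR's quasi-likelihood test, 2 with DESeq2, with the likelihood ratio test and with the joint fit, and 7 with the replicate block of adjacent library numbers, which also raised the count at an unadjusted p from 10 to 19 and that of all genes under an adjusted p from 24 to 686. All genes under an adjusted p of 0.05 numbered 24 by the quasi-likelihood test, 92 with every gene of at least 1 count, 378 with DESeq2, 401 with the likelihood ratio test and 186 with the joint fit at 24 h. The cause of these changes was not tested. No other alternative put a member under an adjusted p of 0.05 at 24 h, and no alternative did so at 2 h or for the difference. Leaving out 1 library at a time gave 6 to 17 members at an unadjusted p at 24 h, 0 to 3 at 2 h and 2 to 9 for the difference. At 2 h the unadjusted count was 1 in place of 2 with DESeq2, every gene of at least 1 count, the joint fit, the likelihood ratio test, the newer quasi-likelihood method and RLE scaling.

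Without SCD, an alternative chosen after seeing the data, the median of the fatty acid steps at 24 h was -0.26. The median of the mevalonate and sterol steps at 24 h ran from -0.31 to -0.021 and that of the fatty acid steps at 2 h from -0.096 to 0.095 when 1 library was left out. Scaling by library size alone, which moved the median of all genes at 24 h from 0.001 to -0.032, turned the sign of ACAT2 (-0.0098), HMGCS1 (-0.0046) and NSDHL (-0.025) at 24 h, and the joint fit that of NSDHL (-0.0073). Leaving out 1 library turned the sign of 12 of the 32 members at 24 h, with ranges of -0.12 to 0.14 for ACAT2, -0.12 to 0.015 for ACLY, -0.054 to 0.69 for ACSS2, -0.078 to 0.17 for HMGCS1, -0.29 to 0.074 for HSD17B7, -0.045 to 0.20 for INSIG2, -0.40 to 0.022 for LSS, -0.096 to 0.089 for NSDHL, -0.10 to 0.21 for PMVK, -0.21 to 0.071 for SC5D, -0.14 to 0.16 for SQLE and -0.60 to 1.10 for TM7SF2. At 2 h it did so for 11 of the 16 members followed there, with ranges of -0.11 to 0.040 for EBP, -0.19 to 0.16 for ELOVL6, -0.35 to 0.25 for FASN, -0.14 to 0.020 for FDPS, -0.079 to 0.053 for HMGCS1, -0.081 to 0.42 for INSIG1, -0.096 to 0.16 for MVK, -0.039 to 0.23 for SCAP, -0.17 to 0.090 for SCD, -0.15 to 0.13 for SREBF1 and -0.20 to 0.22 for SREBF2, and testing every gene of at least 1 count turned SREBF1 (0.0062). Over all 32 members, 12 changed sign at 24 h under at least 1 alternative and 20 under none, and at 2 h 23 did and 9 did not.

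TM7SF2 had at most 4.11 CPM at 24 h, so its value rests on few counts.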
